A study of Homo sapiens with 4 samples.

Results

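SC replicate 2, 1 of 2 SC libraries of NRF2 ChIP-Seq, held 4881 summits that none of the other 3 NRF2 libraries matched. They were selected by position from the deposited summit lists. A summit of SC replicate 2 was taken when none of the other 3 lists, SC replicate 1, ZMYND8 KO replicate 1 and ZMYND8 KO replicate 2, had a summit within 1000 bp on the same chromosome, over chromosomes 1 to 22 and X. The 4881 summits made up 71.7% of the 6811 SC replicate 2 summits on these chromosomes. The remaining 1930 summits of the list had a counterpart. Because absence from the other lists chose them, their number is a description and no test was run on it.

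All 4 libraries were made from MDA-MB-231 cells, an established line from a human breast tumor, grown as floating mammospheres in MammoCult medium on ultralow attachment dishes. Mammosphere culture is used to enrich breast cancer stem-like cells. SC cells (scrambled control, labelled parental in genotype) and ZMYND8 KO cells gave 2 libraries each, all immunoprecipitated with the same NRF2 antibody, and no treatment is named for either group. Whether the ZMYND8 KO cells were 1 clone, and whether the replicates came from separate cultures, is not given in the sources used here. The lists give a position and a score for each summit, and neither read counts nor a control library was analysed, so the sequencing depth is unknown.

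NRF2 is a transcription factor of the antioxidant response. It pairs with small MAF proteins and binds antioxidant response elements near genes for glutathione synthesis, thioredoxin recycling and detoxification. ZMYND8 is a histone reader that recognizes acetylated and methylated histone tails. In ChIP-Seq a peak is a stretch of the genome where immunoprecipitated fragments pile up, and its summit is the highest base. A weak peak can pass the calling threshold in one library and miss it in another, so a summit absent from a list is not shown to be an unbound site.

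The same rule applied to the other lists found fewer unmatched summits. SC replicate 1 had 413 of 2019 (20.5%), ZMYND8 KO replicate 1 had 8 of 394 (2.03%), and ZMYND8 KO replicate 2 had 17 of 477 (3.56%). The Wilson 95% interval was 70.6% to 72.7% for SC replicate 2 and 18.8% to 22.3% for SC replicate 1, and these intervals cover counting error alone and treat summits as independent. The lists differ in length, and a short list is more easily matched by long ones, so these shares are not a comparison of the libraries.

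Most of the SC replicate 2-only summits were weak. The score of a summit was taken to be the −log10 q-value of its peak, so that a higher score marks a peak further above background within its own library. Scores of the 4881 summits ran from 1.32 to 26.8, with a median of 3.40 and quartiles of 2.53 and 4.58. The 1930 summits of the same list that had a counterpart had a median of 6.09. By class, 1900 of the unmatched summits (38.9%) scored under 3, 2306 (47.2%) scored 3 to 5, 618 (12.7%) scored 5 to 10 and 57 (1.17%) scored 10 or over. Among the matched summits the same classes held 247 (12.8%), 577 (29.9%), 546 (28.3%) and 560 (29.0%). Both sets thus had summits in every class of score. Scores under 5 were held by 86.2% of the unmatched and 42.7% of the matched summits.

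**Figure D1:**
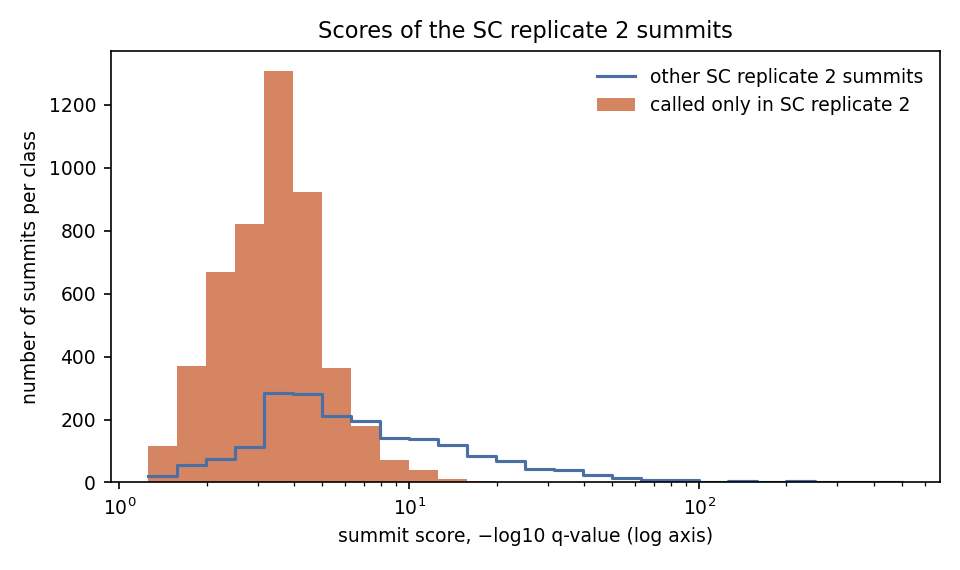
Number of SC replicate 2 summits (vertical axis) in classes of the summit score (horizontal axis, −log10 q-value, log scale). Filled bars are the 4881 summits called only in SC replicate 2 and the line is the 1930 others; the unmatched summits pile up around their median of 3.40 and the matched ones reach much higher scores.

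Scores came in few distinct values. The 4881 summits took 355 values, and the 5 most frequent values were held by 1942 of them (39.8%). The most common was 2.53, held by 505 summits, followed by 3.65, held by 504. These ties mean that many of the summits cannot be ranked against each other, and ranks below are given with ties at the best rank they share.

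Read the other way, the share of SC replicate 2 summits that went unmatched fell from class to class. It was 88.5% of the summits scoring under 3 (95% interval 87.1% to 89.8%), 80.0% of those at 3 to 5 (78.5% to 81.4%), 53.1% of those at 5 to 10 (50.2% to 55.9%) and 9.24% of those at 10 or over (7.20% to 11.8%). In SC replicate 1 the corresponding shares were 35.9%, 35.1%, 19.2% and 1.06%. Both SC lists had the lowest share at the highest scores. SC replicate 1 summits were searched against a longer list than SC replicate 2 summits were, so the shares of the 2 lists are not compared. Scores of different libraries are also not on a common scale, so a class does not hold peaks of equal strength in both lists.

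**Figure D2:**
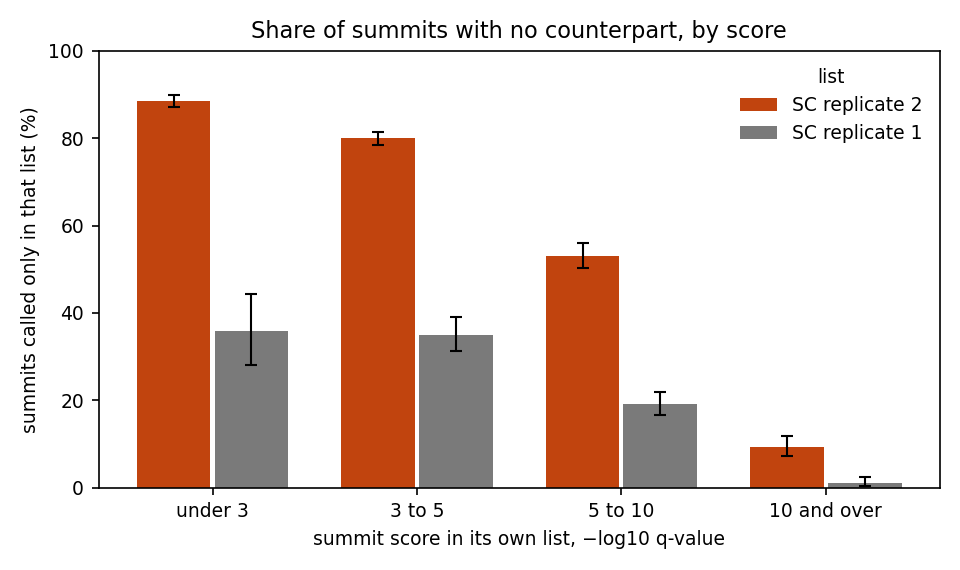
Share of summits with no summit of the other 3 lists within 1000 bp (vertical axis, percent) in 4 classes of the summit score of their own list (horizontal axis, −log10 q-value), for SC replicate 2 and SC replicate 1. Lines on the bars are Wilson 95% intervals; SC replicate 2 falls from 88.5% in the lowest class to 9.24% in the highest, and SC replicate 1 from 35.9% to 1.06%.

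The top of the SC replicate 2 list held few unmatched summits. Of the 300 highest-scoring summits 4 were unmatched (1.33%, 95% interval 0.520% to 3.38%), and of the 502 summits that scored at least as high as the one ranked 500, 23 were (4.58%, 3.07% to 6.78%). When the list was shortened to the length of SC replicate 1, at a score of at least 4.92, 962 of 2171 summits were unmatched (44.3%, 42.2% to 46.4%), a setting chosen after seeing the data. The lists it was searched against were not changed, so this share is not set against that of SC replicate 1, which was searched against all SC replicate 2 summits.

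The strongest unmatched summit lay on chromosome 17 at 3793654 in hg19 coordinates and scored 26.8, rank 138 of its list. The nearest SC replicate 1 summit was 272 kb away, and another unmatched summit, scoring 4.57, lay 1075 bp away. The next was on chromosome 19 at 49959883, with a score of 20.1 and rank 217, and had its nearest SC replicate 1 summit at 421 kb. These were the 2 unmatched summits that scored 20 or more.

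Another strong summit was on chromosome 1 at 109968916, with a score of 18.1, and stood 210 kb from any other SC replicate 2 summit. On chromosome 5 there were a summit at 133394545 with a score of 16.9 and one at 149185487 with a score of 16.1, which lay 407 kb and 359.8 kb from SC replicate 1. Chromosome 7 at 42928581 followed with a score of 15.6. All 6 summits that scored 15 or more were over 100 kb from the nearest SC replicate 1 summit.

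The other 4 of the 10 highest had a score of 13.9, as did 2 further summits on chromosomes 7 and 9. They lay on chromosome 10 at 71122476, chromosome 11 at 47447699, chromosome 3 at 23987710 and chromosome 6 at 34625510. The summit on chromosome 3 was 1187 bp from an SC replicate 1 summit and 981 bp from a matched SC replicate 2 summit, so it stood just outside a site that both SC libraries held. The summit on chromosome 6 was 6.36 kb from SC replicate 1 and 6.42 kb from ZMYND8 KO replicate 2, while those on chromosomes 10 and 11 were 129 kb and 246 kb from SC replicate 1.

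The 57 unmatched summits with a score of 10 or over had a median score of 11.0, and 6 of them scored 15 or more. They were spread over 21 chromosomes, with 7 each on chromosomes 6 and 10 and 5 on chromosome 1, and none on chromosomes 13 and 21. Of the 57, 40 were over 100 kb from SC replicate 1 and 5 were within 5000 bp of it. The median distance to the nearest ZMYND8 KO summit was 1965 kb. A further SC replicate 2 summit lay within 1000 bp of 16 of them (28.1%, 95% interval 18.1% to 40.8%), and in 15 of these cases the neighbour was unmatched as well. The rule itself makes a matched neighbour rare at that distance.

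Most of the 4881 summits lay more than 100 kb from any SC replicate 1 summit. The median distance was 260.1 kb (95% interval 241 to 277 kb, from order statistics), with quartiles of 65.5 and 893 kb and a maximum of 31.1 Mb. The rule fixed the lower end at just over 1000 bp. Distances between 1 and 2 kb were found for 206 summits (4.22%), 2 to 5 kb for 160 (3.28%) and 5 to 10 kb for 118 (2.42%). A distance of 10 to 100 kb was found for 1065 (21.8%), 100 to 1000 kb for 2236 (45.8%) and more than 1000 kb for 1096 (22.5%).

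ZMYND8 KO summits were still further away, with a median of 1457 kb and quartiles of 435 and 3695 kb, in lists that are much shorter. In the mirrored case, the 413 SC replicate 1-only summits were a median of 62.5 kb from the nearest SC replicate 2 summit (43.3 to 77.6 kb), and 21 of them (5.08%) were more than 1000 kb away. A distance to a longer list is shorter by construction, so these medians are given side by side and not compared.

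**Figure D3:**
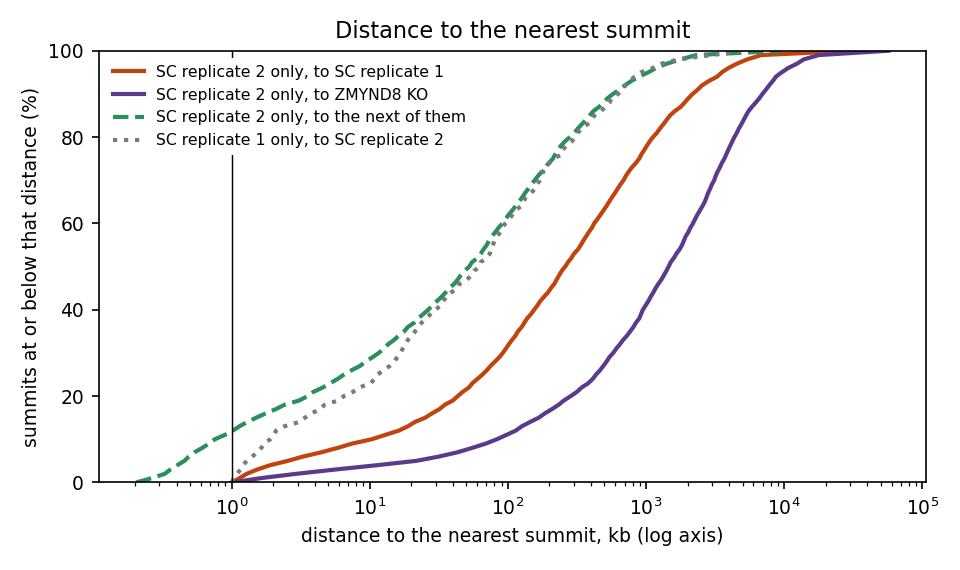
Cumulative share of summits (vertical axis, percent) by distance to the nearest summit (horizontal axis, kb, log scale), for the 4881 SC replicate 2-only summits measured to SC replicate 1, to both ZMYND8 KO lists and to the next summit of their own kind, and for the 413 SC replicate 1-only summits measured to SC replicate 2. The vertical line marks the 1000 bp of the rule; medians are 260.1, 1457, 52.5 and 62.5 kb in that order.

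Score hardly followed distance. The median score was 3.62 at 1 to 2 kb from SC replicate 1 and 3.65 at 2 to 5 kb and at 5 to 10 kb. It was 3.40 at 10 to 100 kb, at 100 to 1000 kb and at 1000 to 10000 kb. The value 3.40 was a tied score held by 326 unmatched summits, so equal medians can hide small differences. Summits scoring under 3 were 31.6% at 1 to 2 kb, 30.6% at 2 to 5 kb and 39.0% at 5 to 10 kb, and between 38.7% and 40.7% in the 3 classes from 10 to 10000 kb. Summits scoring 10 or over were few in every class. They were 3 of the 206 nearest ones (1.46%), 1.25% at 2 to 5 kb and 2.54% at 5 to 10 kb. Further out they were 0.845% at 10 to 100 kb, 0.984% at 100 to 1000 kb and 17 of the 1083 at 1000 to 10000 kb (1.57%).

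Among the distance classes given here, the number of summits showed no sharp drop at the limit of 1000 bp. Distances were measured to the nearest summit of any other list. On the matched side, 74 SC replicate 2 summits lay between 500 and 600 bp, 59 between 800 and 900 bp and 42 between 900 and 1000 bp. Beyond the limit, 38 lay between 1000 and 1100 bp, 40 between 1100 and 1200 bp and 13 between 1900 and 2000 bp. On either side of the limit the median scores were 3.50 and 3.85. By contrast 1030 summits had a counterpart at up to 100 bp, and their median score was 8.77. The 5 summits nearest the limit on the unmatched side were at up to 1019 bp and scored 2.39, 3.65, 4.58, 4.58 and 6.87, and the 5 on the matched side were at 983 to 1000 bp and scored 2.53, 2.97, 6.06, 2.39 and 3.41.

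Unmatched summits occurred on every one of the 23 chromosomes, but at very uneven density. Density was counted per Mb of span, the stretch from the first to the last summit of all 4 lists, which came to 2922 Mb in all. Over the whole span there were 1.67 unmatched summits per Mb, 0.661 matched SC replicate 2 summits and 0.691 SC replicate 1 summits. Chromosome 19 had the highest density of unmatched summits, 352 summits or 6.02 per Mb (95% Poisson interval 5.41 to 6.68). Chromosome 17 followed with 322 summits or 4.01 per Mb (3.59 to 4.48), and chromosome 20 with 186 or 2.97 per Mb (2.56 to 3.43).

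Density then dropped to 2.28 per Mb on chromosome 8 and 2.03 on chromosome 10. Chromosomes 11, 14, 6, 12, 22, 5, 3 and 1 lay close together between 1.97 and 1.68 per Mb, and chromosomes 9, 7, 16 and 2 between 1.58 and 1.26. Chromosomes 15 and 21 both had 1.10 per Mb. The lowest autosomes were chromosomes 18, 13 and 4 with 0.917, 0.837 and 0.644 per Mb, and chromosome X had 25 summits or 0.168 per Mb (0.108 to 0.247).

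**Figure D4:**
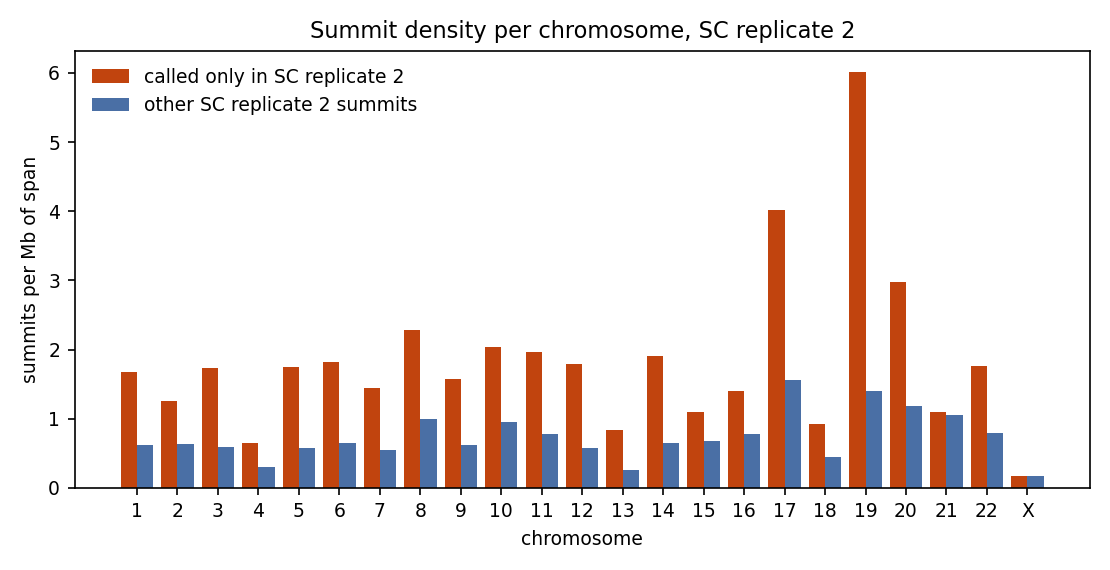
Summits per Mb of span (vertical axis) on chromosomes 1 to 22 and X (horizontal axis) for the summits called only in SC replicate 2 and for the other summits of the same list. Chromosome 19 stands highest for the unmatched summits at 6.02 per Mb, and the 2 bars are nearly equal on chromosomes 21 and X.

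The matched summits of the same list followed a similar order with a smaller range. Their density ran from 0.174 per Mb on chromosome X to 1.56 on chromosome 17, an 8.94-fold range against 35.9-fold for the unmatched summits. Without chromosome X these ranges were 6.12-fold and 9.34-fold. Of the 26 matched summits of chromosome X, 16 lay in 1 dense cluster, as did 16 of the 125 of chromosome 17 in another. The range of the matched summits with chromosome X therefore depends on 1 locus there. Over the 23 chromosomes the density of unmatched summits had a Spearman correlation of 0.721 with that of matched summits and of 0.748 with that of SC replicate 1. The points share chromosome length, gene content, base composition and, for the first value, the library, so no p is given. Copy number of the chromosomes in this cell line was not analysed here.

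The unmatched share of a chromosome's SC replicate 2 summits lay between 62.1% and 76.7% on 20 of the 23 chromosomes. The 3 others were chromosome 19 with 81.1% (95% interval 77.2% to 84.5%), chromosome 21 with 51.2% or 41 of 80 summits (40.5% to 61.9%), and chromosome X with 49.0% or 25 of 51 (35.9% to 62.3%). The share was also taken among weaker and stronger summits. Among summits that scored under 5 the unmatched share was 83.6% over all chromosomes, 88.9% on chromosome 19 (85.2% to 91.8%), 80.0% on chromosome X (60.9% to 91.1%) and 62.1% on chromosome 21 (49.2% to 73.4%). Among summits that scored 5 or more it was 37.9% over all chromosomes, 48.2% on chromosome 19 (37.8% to 58.8%), 19.2% or 5 of 26 on chromosome X (8.51% to 37.9%) and 22.7% or 5 of 22 on chromosome 21 (10.1% to 43.4%). Chromosome 21 was below the value of all chromosomes in both classes, with an interval that covered it among the stronger summits, and chromosome X was below it in both, with an interval that covered it among the weaker ones. On chromosome X, 16 of the 26 matched and 3 of the 25 unmatched summits lay in 1 dense cluster, as defined below, from 61682636 to 61726543. On chromosome 21, 11 of the 39 matched and 0 of the 41 unmatched summits lay in 1 such cluster, from 14338173 to 14350980. The low shares of these chromosomes thus depend in part on 1 locus each. No test was run between chromosomes, since summits of 1 library are not replicates.

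Median scores of the unmatched summits ran from 3.27 on chromosome 14 to 3.72 on chromosome X, and the share scoring under 3 ran from 28.0% on chromosome X to 45.2% on chromosome 14. The median distance to SC replicate 1 varied far more, from 97.9 kb on chromosome 8 and 119 kb on chromosome 20 to 1407 kb on chromosome 13 and 1413 kb on chromosome X.

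Along the chromosomes, 1587 of 2941 bins of 1 Mb (1000000 bp, counted from position 1) held at least 1 unmatched summit. A single summit was found in 592 bins, 2 to 4 in 707, 5 to 9 in 228, 10 to 19 in 50 and 20 or more in 10. The bins with 10 to 19 held 13.2% of the unmatched summits, and the 10 bins with 20 or more, 0.340% of all bins, held 5.74%. The mean was 1.66 per bin and the variance 8.42.

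**Figure D5:**
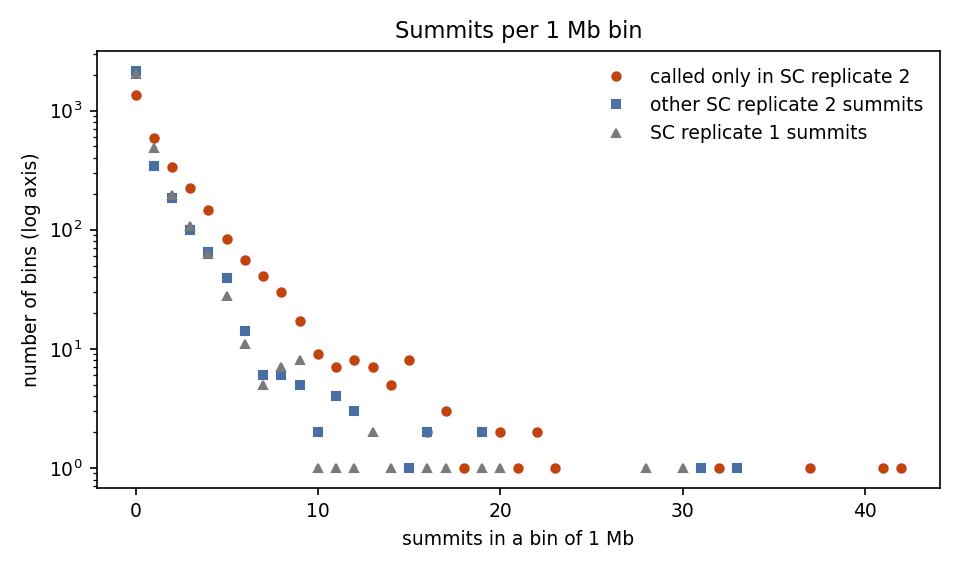
Number of 1 Mb bins (vertical axis, log scale) that hold a given number of summits (horizontal axis), for SC replicate 2-only summits, other SC replicate 2 summits and SC replicate 1 summits. The unmatched summits reach 42 in a bin, the other SC replicate 2 summits 33 and SC replicate 1 summits 30.

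Bins rich in unmatched summits also tended to hold sites found elsewhere. An SC replicate 1 summit was present in 193 of the 1354 bins with no unmatched summit (14.3%), in 327 of the 707 with 2 to 4 (46.3%), in 156 of the 228 with 5 to 9 (68.4%) and in all 10 bins with 20 or more. In all, 2984 unmatched summits (61.1%) lay in a bin with an SC replicate 1 summit, which 31.2% of bins had. Over the 2941 bins the Spearman correlation with the number of SC replicate 1 summits was 0.433, given without a p because neighbouring bins and both lists share sequence content. The other 1897 unmatched summits (38.9%) were in 861 bins where SC replicate 1 had none.

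The densest bin was on chromosome 17 from 79000001 to 80000000, near the end of the long arm, with 42 unmatched and 15 matched SC replicate 2 summits. SC replicate 1 held 9 summits there, and the ZMYND8 KO replicates held 2 and 4. The unmatched summits of this bin scored 1.38 to 7.72 with a median of 2.95, and 21 of them scored under 3.

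The next 4 bins were consecutive on chromosome 8, from 142000001 to 146000000, again at the end of a long arm. They held 41, 23, 37 and 32 unmatched summits in order of position. SC replicate 1 held 7, 5, 3 and 12 summits in the same bins, and matched SC replicate 2 summits were 4, 2, 4 and 12. Each ZMYND8 KO library had 1 summit in the 4 bins together. These 133 summits were 40.4% of the 329 unmatched summits of chromosome 8. Their median score was 3.31, and 1 of them scored over 10, at 10.1.

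Other dense bins were on chromosome 19 from 11000001 to 12000000 with 22 unmatched summits and on chromosome 20 from 60000001 to 61000000 with 22, neither with a ZMYND8 KO summit. Chromosome 19 had 13 bins with 10 or more among its 60. The outer 5 Mb at both ends of the chromosomes' spans held 885 unmatched summits (18.1%, 95% interval 17.1% to 19.2%) on 7.87% of the total span. They held 13.8% of matched SC replicate 2 summits (12.4% to 15.4%), 13.3% of SC replicate 1 summits (11.9% to 14.9%) and 14.0% of SC replicate 1-only summits (11.0% to 17.7%). The 133 unmatched summits of the 4 chromosome 8 bins were among the 885. A span begins and ends at an outermost summit, which need not lie near the end of the chromosome.

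Unmatched summits also lay near one another. The median distance to the next one was 52.5 kb (95% interval 47.3 to 57.3 kb), with quartiles of 6.52 and 212 kb. Another unmatched summit was within 1000 bp of 580 of them (11.9%), within 5000 bp of 1107 (22.7%) and within 10000 bp of 1390 (28.5%). The share was lower without the weak summits: among the 675 that scored 5 or more, a sparser set, 8.15% had another of them within 10000 bp, and in the shortened list it was 10.9%. A matched SC replicate 2 summit was within 1000 bp of 61 (1.25%) and within 10000 bp of 434 (8.89%). The rule makes such pairs rare within 1000 bp. Of the matched summits 65.5% had a counterpart within 200 bp, which can match a neighbouring summit too. Unmatched summits with any SC replicate 2 summit within 1000 bp numbered 632 (12.9%) and had a median score of 3.65, against 3.40 for the rest. Among matched summits 1089 of 1930 (56.4%, 54.2% to 58.6%) had such a neighbour, and among SC replicate 1-only summits 21 of 413 (5.08%, 3.35% to 7.65%) had another SC replicate 1 summit at that distance. These shares at 1000 bp follow in part from the rule and are not compared.

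When unmatched summits were joined wherever neighbours lay within 50000 bp, 2472 stood alone (50.6%), 551 runs held 2, and 83 runs held 5 or more. The 83 runs lay on 18 chromosomes, contained 581 summits (11.9%, 95% interval 11.0% to 12.8%) and had a median length of 73.8 kb. The same joining of the 1930 matched SC replicate 2 summits gave 40 runs of 5 or more with 368 summits (19.1%, 17.4% to 20.9%), a larger share in a smaller set. The 413 SC replicate 1-only summits, a much sparser set, gave 0 such runs. The matched runs take in dense clusters described below, such as 33 matched summits on chromosome 2 from 92280317 to 92326791. No summits in repeated sequence were left out here, so the larger share need not hold away from such clusters. Of the 83 runs, 36 contained an SC replicate 1 summit, 15 a ZMYND8 KO summit and 33 a matched SC replicate 2 summit. The other 47 runs, with 270 summits, contained unmatched summits alone.

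The runs of this kind with the most summits were on chromosomes 10 and 5, each with 9. They were picked for their number of summits once the values were known. The run on chromosome 10 reached from 33528050 to 33625289. In order of position its summits scored 2.53, 4.92, 4.58, 4.58, 2.53, 1.60, 3.65, 4.92 and 6.28, and the nearest SC replicate 1 summit was 41.2 kb beyond its end. The run on chromosome 5 reached from 150400240 to 150460246. It scored 5.72, 2.53, 6.28, 3.40, 3.40, 7.22, 2.53, 3.65 and 3.65, and was at least 690.4 kb from SC replicate 1 and 690.6 kb from ZMYND8 KO. The highest-scoring summits of the runs ranked 1206 and 1002 in the list.

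The run with the most summits of all was on chromosome 8 from 141959621 to 142318875, where 26 unmatched summits stood beside 4 matched ones and 6 of SC replicate 1, with none of ZMYND8 KO. Runs of 21 and 20 followed on the same chromosome, from 144322783 to 144679756 and from 144953156 to 145164452. The first of them held 2 matched summits, 1 SC replicate 1 summit and none of ZMYND8 KO. The other held 12 matched summits, 10 of SC replicate 1 and 1 of each ZMYND8 KO library.

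Dense clusters that both SC libraries shared contained few unmatched summits. A cluster here is a stretch, widened by 1000 bp on each side, in which 5 neighbouring SC replicate 1 summits lay within 50000 bp and SC replicate 2 had at least 5 summits. In the 30 clusters, 33 of 336 SC replicate 2 summits were unmatched (9.82%, 95% interval 7.08% to 13.5%), which was 0.676% of all unmatched summits, and 16 clusters had none. The share differed between clusters, from 0 of 33 on chromosome 2 at 92280317 to 92326791 to 7 of 15 on chromosome 17 at 79855186 to 79885791. Clusters beside centromeres were not separated from those on chromosome arms, so the pooled share need not describe either kind. The clusters were drawn on SC replicate 1 summits, so a low unmatched share inside them follows in part from the rule.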

How the data were processed

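Per the labels, chromatin of 4 libraries was cross-linked, immunoprecipitated with an NRF2 antibody and sequenced. The submitters' processing notes name FastQC 0.11.2, Bowtie2 2.2.3, Picard 1.127 and MACS2 2.0.10, without roles, and the builds hg19 and hg38. The authors deposited 1 list of MACS2 summits per library, called per library, with a score taken to be a −log10 q-value, as MACS2 writes it. Depth, on which it depends, is unknown. No replicates were pooled.

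Positions are 1-based and were read as hg19, since 92 summits, 70 of them unmatched, lie past the end of the GRCh38 gene annotation on their chromosome. No hg19 genome or annotation was used, so genes, sequences and motifs were not analysed. Summits on chromosomes Y and M were left out, 11 in SC replicate 1 and 5 in SC replicate 2. For each summit the nearest summit of every list was found. Shares carry Wilson intervals, densities exact Poisson intervals and medians intervals from order statistics, all at 95% and for counting error alone. No test was run, because the rule uses the lists themselves and 1 library holds all the summits. The rule, classes and clusters were chosen with earlier results of these data known. Named positions are the 10 highest-scoring unmatched summits, the 5 densest bins and the 5 summits nearest each side of the limit, and others were chosen after seeing the data.

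Alternatives were windows of 200, 500 and 5000 bp, score minimums of 5 and 10, summits within 500 bp counted once, other bins, and leaving out each list. The functions were tested on simulated data. Python 3.11.15, numpy 2.4.6, pandas 2.3.3, scipy 1.17.1 and matplotlib 3.10.9 were used.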

Additional observations from a re-analysis of the deposited data

How the results depend on the processing

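The score minimum moved the numbers, shares and densities most. With a score of at least 5 in SC replicate 2, 675 summits were unmatched (37.9%), at 0.231 per Mb, with a median of 231 kb to SC replicate 1, 8.15% within 10000 bp of another unmatched summit, 4 in the densest bin and a 20.4-fold range of density over chromosomes. With a score of at least 10 they were 57 (9.24%), 0.0195 per Mb, 292 kb, 0% and 1, and no range could be given because 2 chromosomes had none. With a score of at least 10 in all lists, 221 (35.8%) were unmatched, since weak counterparts no longer counted. In the list shortened to the length of SC replicate 1, an alternative added after seeing the data, the values were 962 (44.3%), 0.329 per Mb, 10.9% near another, 5 in the densest bin and a 13.9-fold range.

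Windows of 200, 500 and 5000 bp gave shares of 81.4%, 76.2% and 66.2%, medians of 187, 225 and 316 kb to SC replicate 1, and 34.4%, 31.3% and 26.2% within 10000 bp of another, which follows from the rule. At 200 bp the median score was 3.52 and 37.0% scored under 3. Counting summits within 500 bp once gave a share of 74.2%, with 24.0% near another. Bins of 5000000 bp held up to 125.

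Leaving out 1 of the other lists, the share ran from 71.8% to 88.6%, the median score from 3.40 to 3.62, the share under 3 from 34.6% to 38.9%, the median distance to SC replicate 1 from 139.9 to 260.2 kb, and the share near another from 28.5% to 37.5%. In each case the far value came without SC replicate 1, where 6033 summits were unmatched. For the median score, the share under 3 and the median distance this was the largest move of any alternative run. The summits added in that setting lie within 1000 bp of SC replicate 1, so the higher share and the shorter distance follow from the rule. Of 87 values recomputed, 47 stayed within the interval of the reported value, or within 1.5 times of it for counts and densities. The density is the number over a fixed span, so these values repeat each other in the tally. The interval and the 1.5-fold band are also unlike criteria, so the tally is no measure of robustness. Other chromosome lengths, distances to transcription start sites and motif windows were not run, for lack of an hg19 genome. No paired analysis was possible because no result comes from a test. Unknown depth limits every absence of a summit.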

Other observations

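Outside the chromosomes described, SC replicate 2 had 5 summits on chromosome Y, of which 2 had no summit of another list within 1000 bp. SC replicate 1 also had 5 summits on chromosome Y. Whether these cells carry a chromosome Y, or the reads came from similar sequence elsewhere, was not examined, so these summits are not shown to be bound sites.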
